A study of Mus musculus with 36 samples.

Results

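The primitive and visceral endoderm genes followed here were 10 mouse genes chosen by name: Afp, Ttr, Apoa1 and Dab2, which serve the absorptive and secretory work of the yolk sac, and Gata4, Gata6, Sox7, Sox17, Foxa2 and Hnf4a, which encode transcription factors. All 10 had a row in each of the 3 deposited tables, of 19834 genes for embryonic stem cells and embryoid bodies (EBs), 18256 for pancreatic ductal adenocarcinoma (PDA) cells and 18758 for pancreatic organoids. The EB table held 8 libraries of E14 mouse embryonic stem cells with a WT or a KO label for Rreb1, which encodes a zinc finger factor, at day 0 or at day 4 of EB culture, with 2 libraries in each of the 4 groups. The PDA table held 8 libraries of the KSIC_806 mouse line, labelled WT or KO and treated with 2.5 µM SB505124, which blocks the type I receptor of TGFβ, for 6 h or with 100 pM TGFβ for 1.5 h, again with 2 libraries in each group. The organoid table held 1 library for each of 4 conditions, SB505124 for 6 h or TGFβ for 1.5 h, without doxycycline or with 1 µg/mL doxycycline from plating. The labels of the PDA libraries carry the further mark S4. The sources used here give neither its meaning nor the gene that doxycycline controls in the organoids. The labels name no clone and do not say whether replicates were separate cultures, so the spread behind each p-value is that between libraries and may be technical.

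Primitive endoderm is the epithelium that forms beside the epiblast in the late blastocyst, and it gives rise to the visceral endoderm that surrounds the embryo and to the parietal endoderm that lines the yolk sac cavity. GATA6 and GATA4 act early in this lineage, followed by SOX17 and SOX7, while FOXA2 and HNF4A act in the visceral endoderm and in later gut, liver and pancreas. HNF4A and its partners drive genes for serum proteins and lipoproteins such as alpha-fetoprotein, transthyretin and apolipoprotein A-I, and DAB2 is the adaptor through which visceral endoderm takes up ligands of megalin and cubilin. In embryoid bodies an outer layer of such endoderm forms in culture.

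The genes lie on 7 mouse chromosomes in the GRCm38.p6 annotation, with positions given here for the whole transcribed gene. Gata4 (chr14:63198914-63271712) and Sox7 (chr14:63943706-63950732) are on the same chromosome, as are Foxa2 (chr2:148042877-148046969) and Hnf4a (chr2:163506811-163572907). Gata6 and Ttr share another. Sox17 is at chr1:4490928-4497426, Afp at chr5:90490714-90508907, Apoa1 at chr9:46228630-46230469 and Dab2 at chr15:6299788-6440715. Gata6 is overlapped by Gata6os, Ttr by Gm16090 and Dab2 by Gm16311 and Gm18888, and none of these 4 has a row in the EB table.

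Promoter windows of 300 bases, from 250 before to 50 after an annotated start site, were taken from RefSeq (GRCm38.p6) for the 5 members with an entry, Afp, Foxa2, Hnf4a, Apoa1 and Dab2, which had 9 windows in all. These windows were searched on both strands for the letters of 3 kinds of motif. The GATA letters were AGATAA and the versions of it that end in G (AGATAG), begin with T (TGATAA) or do both (TGATAG). Forkhead letters were TGTTTAC and the version with G near its end (TGTTTGC), and HNF4 letters were CAAAGTCCA. A window from each of 4 members is shown because it holds letters that factor families among the other members are known to bind. Capitals mark the matches, which do not overlap each other, and positions are those of a match's first base counted from the start site.
Afp, chr5:90490464-90490763, plus strand: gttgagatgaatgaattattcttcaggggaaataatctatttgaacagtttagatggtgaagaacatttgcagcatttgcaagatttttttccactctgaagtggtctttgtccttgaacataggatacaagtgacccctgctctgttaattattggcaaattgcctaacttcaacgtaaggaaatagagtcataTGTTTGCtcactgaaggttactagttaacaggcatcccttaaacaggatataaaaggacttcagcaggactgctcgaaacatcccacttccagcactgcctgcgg
Apoa1, chr9:46228380-46228679, plus strand: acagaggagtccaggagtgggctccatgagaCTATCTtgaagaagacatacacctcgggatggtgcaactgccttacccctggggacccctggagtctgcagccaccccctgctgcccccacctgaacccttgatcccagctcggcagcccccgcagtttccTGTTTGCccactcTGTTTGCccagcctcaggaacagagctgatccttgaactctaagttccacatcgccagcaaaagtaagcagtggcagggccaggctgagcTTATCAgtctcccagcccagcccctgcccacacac
Hnf4a, chr2:163506607-163506906, plus strand: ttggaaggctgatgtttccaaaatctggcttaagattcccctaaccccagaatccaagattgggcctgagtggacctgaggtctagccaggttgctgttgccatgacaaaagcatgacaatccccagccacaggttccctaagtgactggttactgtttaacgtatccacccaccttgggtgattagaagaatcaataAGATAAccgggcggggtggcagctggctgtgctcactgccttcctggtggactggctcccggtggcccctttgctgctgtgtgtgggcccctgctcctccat
Dab2, chr15:6299539-6299838, plus strand: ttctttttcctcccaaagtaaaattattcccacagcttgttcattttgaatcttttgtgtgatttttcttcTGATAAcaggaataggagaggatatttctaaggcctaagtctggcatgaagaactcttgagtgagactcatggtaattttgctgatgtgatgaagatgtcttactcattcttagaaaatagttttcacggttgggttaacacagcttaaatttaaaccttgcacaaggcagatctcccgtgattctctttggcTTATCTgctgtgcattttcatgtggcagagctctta
The Afp window held forkhead letters at -55. The Apoa1 window held forkhead letters at -88 and -75 and GATA letters at -219 and 16. The Hnf4a window held GATA letters at -52, and the Dab2 window held them at -179 and 15. Among all 32851 windows of the same length, 29.8% held GATA letters, 8.5% forkhead and 0.5% HNF4 letters, so a GATA match in particular is a common feature of promoters. The other windows of Hnf4a and Dab2 held none of the searched letters, and of the 3 Foxa2 windows 1 held GATA letters, at -183. None of the 9 windows held the HNF4 letters, which says only that these letters are not in the windows. A match is a description of these letters and not a bound site.

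Depth in the EB table ran from 19885697 to 29082712 reads per library, recovered from the deposited normalized counts, which are read counts divided by a size factor per library. Rreb1, the gene named in the genotype labels, had normalized counts of 1085 and 1019 in the WT day 0 libraries, 1482 and 1586 in those of WT day 4, 2642 and 2830 in the labelled KO at day 0, and 1920 and 1512 in the labelled KO at day 4. Its transcript was therefore not lower in the labelled KO, and was higher there at day 0 by a log2 fold change of 1.38 ± 0.10 (SE, adjusted p = 2.35e-08). A count over the whole gene does not show which exons the reads came from, so it does not check the label, and those libraries are called the labelled KO below.

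In WT cells every one of the 10 endoderm genes rose from day 0 to day 4, by 2.12-fold for Hnf4a, 69.0-fold for Apoa1 and at least 927-fold for Afp. In the labelled KO at day 4 all 10 were lower than in WT at day 4, by between 5.62-fold for Sox7 and 999.9-fold for Ttr. The rise passed the test for 10 of 10 genes, against 32.3% of the 15227 genes tested that rose in WT. Lower values in the labelled KO at day 4 passed for 10 of 10, against 28.4% of all genes tested. For each of the 10, both WT day 4 libraries lay above the other 6 libraries. The tests were limma on log2(normalized count + 1), fitted over all 8 libraries with p-values adjusted across all genes tested, and a gene counted as changed at an adjusted p under 0.05. Genes needed a value of at least 10 in at least 2 libraries to be tested, and Afp, Ttr and Apoa1 met that through the WT day 4 libraries only, so their part in these counts follows from the filter. The other 7 were called in both contrasts. These are bulk libraries, in which fewer cells of a type and less RNA per cell cannot be told apart.

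**Figure D1:**
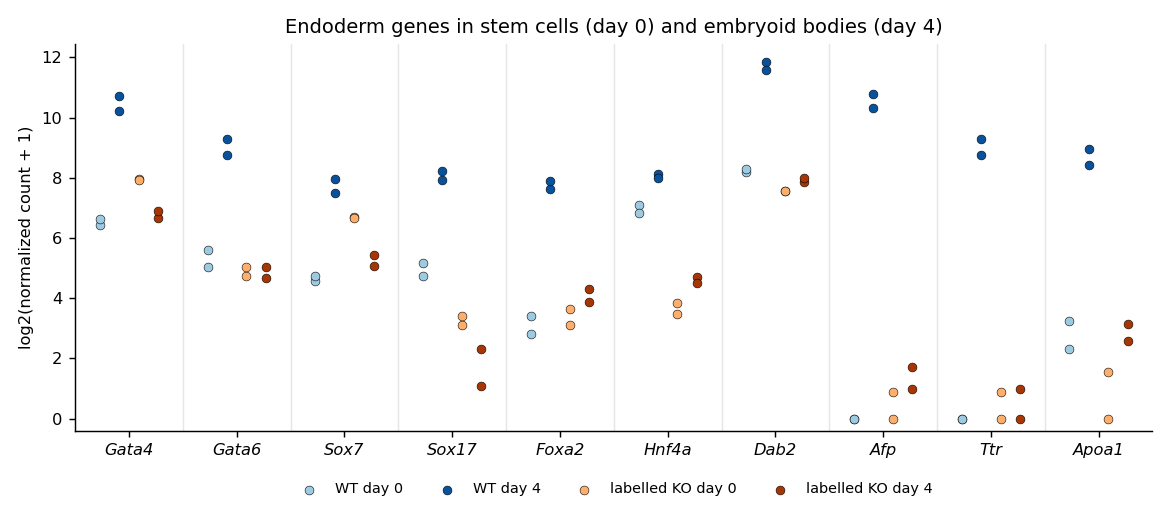
Levels of the 10 endoderm genes in the 8 stem cell and embryoid body libraries. The y axis is log2(normalized count + 1), each point is 1 library, and colours give the genotype label and day. The 2 WT day 4 points stand above the other 6 for every gene, and Afp and Ttr are at or near 0 everywhere else. Heights should be compared within a gene, since the counts are not divided by transcript length.

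Afp encodes alpha-fetoprotein, the main serum protein of the visceral yolk sac. Its normalized counts were 1757 and 1277 in the WT day 4 libraries and 0 in both WT day 0 libraries. The labelled KO gave 0.848 and 0 at day 0 and 2.26 and 0.986 at day 4. The groups were thus almost all or nothing, and the labelled KO at day 4 held 3 Afp reads in all where the WT libraries held 3197. With the floor set at 3 reads over a group, the WT rise was at least 927-fold. The WT value at day 4 was 957-fold that of the labelled KO, with an exact 95% counting interval of 327 to 4645 that covers counting error only. No fold is given between the labelled KO days, because both held 3 reads or fewer.

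Ttr, the gene of the thyroxine and retinol carrier transthyretin, had the same pattern. Its normalized counts were 621 and 435 in WT at day 4, against 0 in both WT libraries at day 0. Values in the labelled KO were 0.848 and 0 at day 0 and 0 and 0.986 at day 4. The WT rise was at least 323-fold. At day 4 WT exceeded the labelled KO, which held 1 read, by 999.9-fold, with a counting interval of 179 to 39530.

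Apoa1, which encodes the main protein of high-density lipoprotein, was low but not absent outside WT day 4. It had normalized counts of 3.97 and 8.48 in WT at day 0, rising to 492 and 339 by day 4. The labelled KO had 0 and 1.91 at day 0 and 7.92 and 4.93 at day 4. The day 4 values of the labelled KO overlapped those of WT at day 0. The fitted WT rise was 5.90 ± 0.51 on the log2 scale (SE, adjusted p = 1.97e-07). The labelled KO also rose, by a log2 fold change of 2.09 ± 0.51 (adjusted p = 0.00274), which rests on 12 reads at day 4 and 2 at day 0. As a ratio of reads that rise was 7.03-fold with a counting interval of 1.57 to 64.7.

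Dab2, the endocytic adaptor gene, was expressed in every group. Its normalized counts were 289 and 315 in WT at day 0 and reached 3690 and 3084 by day 4, a rise of 3.48 ± 0.11 on the log2 scale (SE, adjusted p = 7.62e-12). In the labelled KO they were 189 in both libraries at day 0 and 230 and 254 at day 4. The labelled KO thus ended below the starting level of WT. Its own rise was 0.35 ± 0.11 (adjusted p = 0.013), and this call was lost under quantile normalization (adjusted p = 0.112) and without the second labelled KO library of day 4 (adjusted p = 0.0703). At day 4 the labelled KO was lower than WT by a log2 fold change of -3.80 ± 0.11 (adjusted p = 5.02e-12).

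The receptor genes that DAB2 serves were read beside it. Cubn, which encodes cubilin, went from 223 and 224 in WT at day 0 to 5651 and 4862 at day 4, while the labelled KO had 25.4 and 23.9 at day 0 and 53.2 and 72.0 at day 4. It was lower in the labelled KO on both days, by log2 fold changes of -3.13 at day 0 and -6.38 at day 4. Amn, the membrane partner of cubilin, chosen after its values were seen, had 250 and 151 in WT at day 4 against 35.1 and 19.7 in the labelled KO. Lrp2, which encodes megalin, began higher in the labelled KO, with 3475 and 4488 at day 0 against 1931 and 1845 in WT. Its log2 fold change from day 0 to day 4 was 2.29 ± 0.12 in WT and 0.69 ± 0.12 in the labelled KO (SE). The difference of these changes was -1.60 ± 0.17 (adjusted p = 2.38e-06). It rose in both genotypes, to 10496 and 8085 in WT and 6159 and 6563 in the labelled KO, and the day 4 difference of -0.53 ± 0.12 (SE, adjusted p = 0.00138) was lost without the first WT day 4 library (-0.35, adjusted p = 0.0645).

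Gata4 and Gata6 encode the zinc finger factors that specify primitive endoderm. Gata4 had normalized counts of 84.3 and 96.9 in WT at day 0 and 1197 and 1681 at day 4, a rise of 3.96 ± 0.16 on the log2 scale (SE, adjusted p = 8.03e-11). The labelled KO moved the other way, from 250 and 242 at day 0 to 99.6 and 118 at day 4, a log2 fold change of -1.17 ± 0.16 (adjusted p = 2.21e-05). Gata4 therefore began higher in the labelled KO and ended 13.2-fold below WT. Gata6 had 31.8 and 47.2 in WT at day 0 and 430 and 617 at day 4, a rise of 3.70 ± 0.26. In the labelled KO it was level, with 25.4 and 31.6 at day 0 and 31.7 and 24.6 at day 4, and the 2 days overlapped. The fitted change there was -0.02 ± 0.26 (adjusted p = 0.954).

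Sox7 and Sox17 encode related SRY-box factors of the extraembryonic endoderm, and both are also known from early vessels. Sox7 had 22.8 and 25.4 in WT at day 0 and 179 and 246 at day 4, a rise of 3.07 ± 0.22 on the log2 scale (SE). In the labelled KO it fell from 103 and 101 to 32.8 and 42.4, by 1.43 ± 0.22 on that scale (adjusted p = 7.35e-05). Like Gata4, it started above the WT level and finished below it. Sox17 had 25.8 and 35.1 in WT at day 0 and 241 and 300 at day 4, a rise of 3.12 ± 0.39. The labelled KO had 7.63 and 9.56 at day 0 and 1.13 and 3.94 at day 4, a log2 fold change of -1.56 ± 0.39 (adjusted p = 0.00308) that rests on 19 and 5 reads and was lost with DESeq2 (adjusted p = 0.052). At day 4 the WT level of Sox17 was 103-fold that of the labelled KO, with a counting interval of 43.9 to 318.

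Foxa2 encodes a forkhead factor of the visceral endoderm, node and definitive endoderm. Its counts were 5.95 and 9.69 in WT at day 0 and 197 and 236 at day 4, a rise of 4.65 ± 0.34 on the log2 scale (SE, adjusted p = 3.03e-08). The labelled KO had 7.63 and 11.5 at day 0 and 13.6 and 18.7 at day 4. Those days did not overlap, but the change of 0.71 ± 0.34 did not pass the test (adjusted p = 0.0835).

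Hnf4a, the nuclear receptor gene that sits above many serum protein genes, differed from the rest in where the genotypes parted. WT cells already held 135 and 113 at day 0 and reached 277 and 254 at day 4, a rise of 1.10 ± 0.23 on the log2 scale (SE, adjusted p = 6.93e-04). The labelled KO held 10.2 and 13.4 at day 0 and 24.9 and 21.7 at day 4, a rise of 0.93 ± 0.23 (adjusted p = 0.00252). The labelled KO was lower by a log2 fold change of -3.29 ± 0.23 at day 0 and -3.46 ± 0.23 at day 4, a similar distance on both days. The gene overlaps Hnf4aos, an antisense transcript that also has a row in the EB table. The library kit named in the labels does not mark strand, so reads from sequence common to both cannot be told apart by strand. How far this touches the Hnf4a counts was not tested.

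At day 0, before EB culture, the 10 genes did not share a direction between genotype labels. Gata4 and Sox7 were higher in the labelled KO, by log2 fold changes of 1.43 ± 0.16 and 2.04 ± 0.22 (SE). Sox17, Hnf4a, Apoa1 and Dab2 were lower, by -1.70 ± 0.39, -3.29 ± 0.23, -2.01 ± 0.51 and -0.67 ± 0.11. The count was 2 of 10 higher, against 33.9% of all genes tested, and 4 of 10 lower, against 33.3%, so the shares were near the background. Gata6 (-0.44 ± 0.26, adjusted p = 0.146) and Foxa2 (0.27 ± 0.34, adjusted p = 0.498) did not pass, and Afp and Ttr held at most 1 read in any day 0 group.

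From day 0 to day 4 the labelled KO showed 3 of the 10 genes rising (Hnf4a, Apoa1 and Dab2), against 29.1% of all genes tested, and 3 falling (Gata4, Sox7 and Sox17), against 30.9%. The change from day 0 to day 4 was lower in the labelled KO than in WT for 9 of 10 genes by the interaction term of the same fit, against 28.6% of all genes tested. Among genes with reads in every group, the difference of the changes ran from -3.13 ± 0.16 for Dab2 to -5.13 ± 0.23 for Gata4 on the log2 scale (SE). Hnf4a was the exception, with a difference of -0.16 ± 0.32 (adjusted p = 0.683). Afp, Ttr and Apoa1 met the filter through WT day 4 only, so their part in this count follows from the filter. Of the other 7 genes 6 were lower, against 28% of all genes that did not meet the filter through 1 group only. The call for Apoa1 (-3.81 ± 0.72) was lost with edgeR (adjusted p = 0.121). The median log2 change over the 10 genes was 3.83 in WT and 0.20 in the labelled KO, beside medians of -1.20e-05 and -0.02 over all genes tested.

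**Figure D2:**
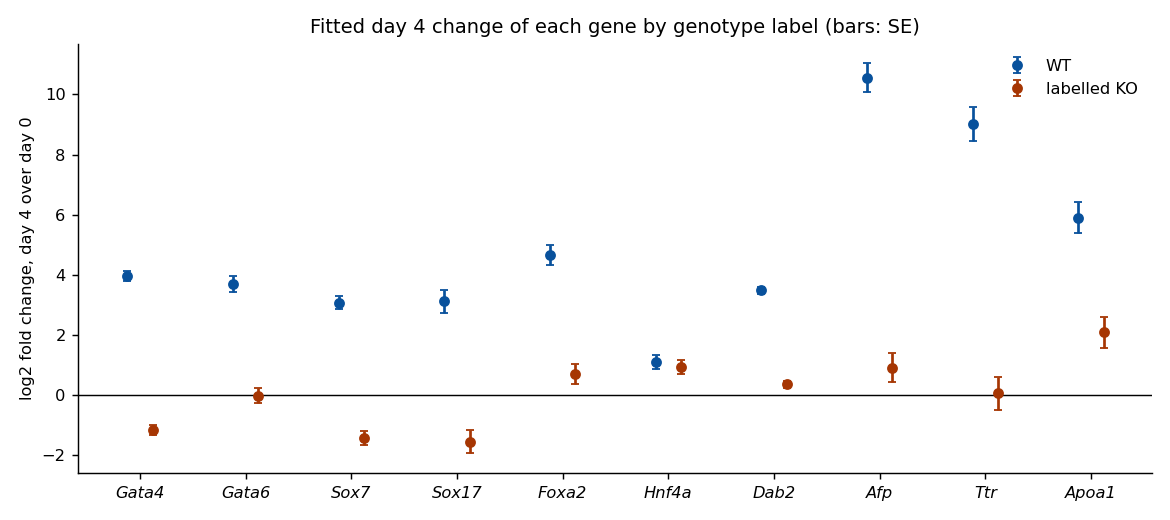
Fitted log2 fold change from day 0 to day 4 for each of the 10 genes, with WT in blue and the labelled KO in brown. Bars are standard errors of the limma fit. All WT points lie above 0, and the labelled KO points for Gata4, Sox7 and Sox17 lie below it, while for Hnf4a the points of the genotypes nearly coincide (1.10 and 0.93). The fitted changes of Afp and Ttr in WT start from 0 reads and depend on the added count of 1.

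Other genes of the lineage were read from lists. Over all genes tested, 32.3% rose and 30.8% fell in WT from day 0 to day 4, and at day 4 the labelled KO was lower for 28.4% and higher for 27.8%, and each list's counts stand beside these shares. Some list genes met the filter on low values through the WT day 4 libraries only, so that their calls follow from the filter, and they are left out of the counts and medians given for the remaining genes of a list. The list of visceral endoderm serum, lipoprotein and uptake genes had 13 of 18 tested members rising in WT and 1 falling. Of these, Apoa4, Apoc2, Fgb and S100g met the filter through WT day 4 only. Among the remaining 14, 9 rose and 1 fell, with a median log2 change of 1.85, and at day 4 the labelled KO had 10 lower and 2 higher. The higher 2 were Apoe (log2 fold change 0.49 ± 0.10, SE) and Npc1l1 (1.08 ± 0.30), both named here after their values were seen. Apoe had 10904 and 8875 in WT at day 4 and 14803 and 12844 in the labelled KO. It made up 33.2% of the list's summed counts in WT at day 4 and 65.6% in the labelled KO at day 4. Apob, the gene of apolipoprotein B, went from 27.8 and 24.2 to 2751 and 2124 in WT and stood at 49.8 and 66.0 in the labelled KO at day 4. Mttp, whose product loads lipid onto apolipoprotein B, was lower there by a log2 fold change of -1.74 ± 0.10 (SE, adjusted p = 4.57e-09). Apoa4, another apolipoprotein gene, chosen after its values were seen, had 358 and 206 in WT at day 4 and 0 in the other 6 libraries, which puts it at least 179-fold higher in WT than in the labelled KO at day 4. Alb, the albumin gene of later liver, had 2 reads over the WT day 4 libraries and 0 in the labelled KO.

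Visceral endoderm signalling and regulator genes rose in WT for 7 of 10 tested members and fell for 1, and 7 were lower and 2 higher in the labelled KO at day 4. Without Ihh, which met the filter through WT day 4 only, 6 of 9 rose and 6 were lower in the labelled KO. Cited1, a transcriptional coactivator gene, had 538 and 414 in WT at day 4 and 13.6 and 18.7 in the labelled KO. Furin, which encodes a protease that activates secreted growth factors, had 2056 and 1911 in WT at day 4 against 1075 and 964, a log2 fold change of -0.96 ± 0.08 (SE, adjusted p = 1.78e-07).

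Genes of the anterior visceral endoderm, the signalling centre that patterns the epiblast, did not move as a block. In WT 4 of 8 rose and 3 fell, and at day 4 the labelled KO had 5 lower and 2 higher. Cer1, Dkk1 and Lhx1 met the filter through WT day 4 only, and of the remaining 5 genes 1 rose and 3 fell in WT, with 2 lower and 2 higher in the labelled KO at day 4. Lhx1, a homeobox gene also in the definitive endoderm list, reached 432 and 850 in WT at day 4 and 5.66 and 2.96 in the labelled KO. Cer1, a secreted antagonist of Nodal and BMP signals chosen after its values were seen, had 173 and 305 in WT at day 4 and 0 in the other 6 libraries. The pair that went the other way was Otx2, an anterior homeobox gene (log2 fold change 1.03 ± 0.08, labelled KO over WT at day 4), and Lefty1, a Nodal antagonist gene (0.94 ± 0.09).

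Basement membrane genes made up much of the primitive and parietal endoderm lists, and 5 genes stand in both. In WT 8 of 11 primitive endoderm genes rose and 1 fell, and 11 of 12 parietal endoderm genes rose. At day 4 the labelled KO was lower for 10 of 11 and 12 of 12. At day 0 it was already lower for 7 of 11 and 7 of 12, and higher for 2 and 3. Over all genes tested at day 0, 33.3% were lower and 33.9% higher. Nid2, named here after its values were seen, was the primitive endoderm gene higher in the labelled KO at day 4 (log2 fold change 0.47 ± 0.09, SE). Col4a1, a type IV collagen chain gene, rose from 1763 and 1701 to 10427 and 10218 in WT, while the labelled KO held 1056 and 852 at day 4. Lama1, the laminin alpha 1 gene, fell in the labelled KO from 1696 and 1803 to 192 and 196. Pdgfra, a receptor gene that marks primitive endoderm and also mesoderm, chosen after its values were seen, had 1100 and 1942 in WT at day 4 and was lower in the labelled KO by a log2 fold change of -5.82 ± 0.26 (SE).

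Markers of other cell types moved with the endoderm genes, and their part in the result was not tested. Among streak and early mesoderm genes 9 of 10 rose in WT and 1 fell, and 9 of 10 were lower and 1 higher in the labelled KO at day 4. Mesp1 and Msgn1 met the filter through WT day 4 only, and of the remaining 8 genes 7 rose in WT, with a median log2 change of 4.07 over the 8, and 7 were lower in the labelled KO. The gene that went the other way was Lefty2, a Nodal antagonist gene, which had 7408 and 7453 in WT at day 0 and 2785 and 2498 at day 4, and 679 and 721, then 5121 and 5727, in the labelled KO (log2 fold change 1.04 ± 0.08, SE, labelled KO over WT at day 4). The summed normalized counts of the whole list were 7593 to 7650 in WT at day 0 and 8699 to 11824 at day 4, and 942 to 1005 and 5340 to 5973 in the labelled KO. Lefty2 made up 97.5% of that sum in WT at day 0 and 95.9% in the labelled KO at day 4. Without it the sums were 186 to 197 and 5913 to 9325 in WT, and 264 to 284 and 220 to 245 in the labelled KO. Only Msgn1 was at 0 in both libraries of a group (the labelled KO at day 0). T, the brachyury gene, had 907 and 1646 in WT at day 4 and 19.2 and 17.7 in the labelled KO. Definitive endoderm genes, whose list holds Eomes and Mixl1, rose for 9 of 12 and fell for 2 in WT, and 8 of 12 were lower and 3 higher in the labelled KO at day 4. Without Cer1 and Lhx1, which met the filter through WT day 4 only, 7 of 10 rose and 6 were lower in the labelled KO. The higher 3 were Prdm1, a transcriptional repressor gene (log2 fold change 1.45 ± 0.08, SE), Trh, the thyrotropin-releasing hormone gene (0.20 ± 0.08, adjusted p = 0.0431), and Nodal, a growth factor gene chosen after its values were seen (0.98 ± 0.08). The call for Trh was lost under most of the alternatives run. Among these were no filter (adjusted p = 0.0743), rescaling to equal totals (0.273) and quantile normalization (log2 fold change 0.04, adjusted p = 0.683). The list's sums were 10762 to 10939 in WT at day 0, then 16820 to 20028, and 9050 to 9428 in the labelled KO at day 0 and 16551 to 19124 at day 4, with Cer1 at 0 outside WT day 4. Trh made up 49.5% to 71.7% of the sum in the groups, and without it the sums were 3503 to 3661 and 5793 to 8918 in WT and 4551 to 4779 and 4974 to 5130 in the labelled KO. Eomes itself rose in both genotypes, to 1945 and 3225 in WT and to 702 and 711 in the labelled KO.

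Trophoblast genes rose in WT for 5 of 6 tested members and fell for 1, and 4 were lower and 1 higher in the labelled KO at day 4. Of these Cdx2 met the filter through WT day 4 only, and without it 4 of 5 rose and 3 were lower. The list's sums went in WT from 3321 to 3416 at day 0 to 13115 to 13230 at day 4, while the labelled KO went from 5086 to 5417 down to 3030 to 3718. Krt18, a keratin gene, made up 46% of the sum in WT at day 4 and 48.8% in the labelled KO at day 4. Without it the sums were 2488 to 2489 at day 0 and 6847 to 7369 at day 4 in WT. In the labelled KO they were 3854 to 4220 and 1557 to 1897. Prl3d1, a trophoblast giant cell gene, was at 0 in every group but WT day 4. Elf5 was at 0 in the labelled KO at day 0. Haemangioblast and endothelial genes, of a lineage in which Sox7 and Sox17 are also expressed, rose for 7 of 10 and fell for 3 in WT, and 7 were lower and 2 higher in the labelled KO at day 4. Without Cdh5, which met the filter through WT day 4 only, 6 of 9 rose and 6 were lower. The higher pair was Tek and Pecam1, an endothelial receptor gene and an adhesion molecule gene, with log2 fold changes of 2.18 ± 0.10 and 1.32 ± 0.07 (SE), and both had fallen in WT together with Sox18, named here after its values were seen. The list's sums were 3442 to 3492 in WT at day 0, then 3953 to 6330, and 6243 to 6409 in the labelled KO at day 0 and 3526 to 3585 at day 4, where Cdh5 was at 0. Pecam1 made up 20.6% of the sum in WT at day 4 and 74.6% in the labelled KO at day 4. Kdr, an endothelial receptor gene, had 1898 and 3619 in WT at day 4 and a log2 fold change of -9.14 ± 0.25 (SE) in the labelled KO against it. Naive pluripotency genes fell in both genotypes, 8 of 10 in WT, where 1 rose, and 10 of 10 in the labelled KO, with medians of -1.81 and -1.86. At day 4 the labelled KO had 5 of the list higher and 4 lower. Esrrb, Zfp42 and Nr0b1 were higher, by log2 fold changes of 1.36 ± 0.07, 0.90 ± 0.06 and 2.89 ± 0.10 (SE), as were Klf2 (1.10) and Tfcp2l1 (0.81). Lower were Dppa3 (-4.55), Tbx3 (-1.45), Prdm14 (-1.03) and Nanog (-0.36), which like Klf2 and Tfcp2l1 are named after their values were seen.

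The remaining lists moved less evenly. Cardiac mesoderm genes rose for 6 of 8 in WT, and 5 were lower in the labelled KO at day 4, but Hand2, Mef2c and Tbx5 met the filter through WT day 4 only, and of the remaining 5 genes 3 rose and 2 were lower. Node and floor plate genes rose for 3 of 4 tested, with 3 lower in the labelled KO at day 4. Neuroectoderm genes rose for 4 of 6 and fell for 1 in WT, and at day 4 the labelled KO had 4 lower and 1 higher. Genes of the FGF input, the signal that favours primitive endoderm over epiblast in the blastocyst, split into 4 that rose and 5 that fell of 9 in WT, and at day 4 into 5 higher and 4 lower in the labelled KO.

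**Figure D3:**
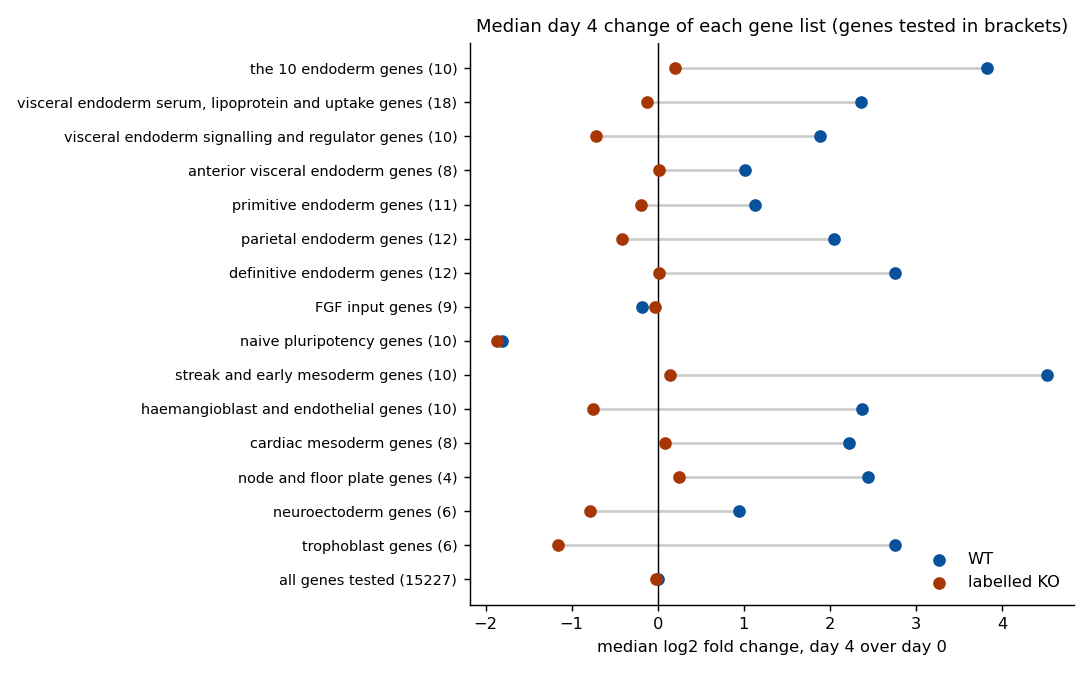
Median log2 fold change from day 0 to day 4 over the tested genes of each list, with WT in blue and the labelled KO in brown. The number of tested genes is in brackets, and lists share some genes. The streak list (4.52 and 0.14), the trophoblast list (2.76 and -1.16) and the 10 endoderm genes (3.83 and 0.20) show the widest gaps between genotypes on this plot, the naive pluripotency medians (-1.81 and -1.86) nearly coincide, and the median over all 15227 genes is near 0. The medians include genes that met the filter through WT day 4 only, and without these the WT medians were 4.07 for the streak list, 2.73 for the trophoblast list and 3.48 for the 10 endoderm genes.

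The WT day 4 libraries differed from each other, and not all of the 10 genes in the same direction. Afp, Ttr, Apoa1 and Dab2 were lower in replicate 2, at 0.727, 0.702, 0.688 and 0.836 of replicate 1, and the exact 95% counting intervals of these ratios lay below 1. Gata4, Gata6, Sox7 and Sox17 were higher in replicate 2, at 1.41, 1.44, 1.38 and 1.25 times replicate 1, with intervals above 1. The intervals for Foxa2 (1.20, from 0.992 to 1.45) and Hnf4a (0.916, from 0.774 to 1.09) held 1. Among marker lists, 1 of 17 visceral endoderm serum, lipoprotein and uptake genes was higher in replicate 2, but 9 of 10 streak, 11 of 11 definitive endoderm and 10 of 10 haemangioblast genes were. Of primitive endoderm, parietal endoderm and neuroectoderm genes, 2 of 11, 3 of 12 and 1 of 6 were higher in replicate 2. Over all 14556 genes with a mean of at least 10, 52.7% were higher in replicate 2. These are 2 libraries, the intervals cover counting error only, and no test between conditions bears on this split.

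**Figure D4:**
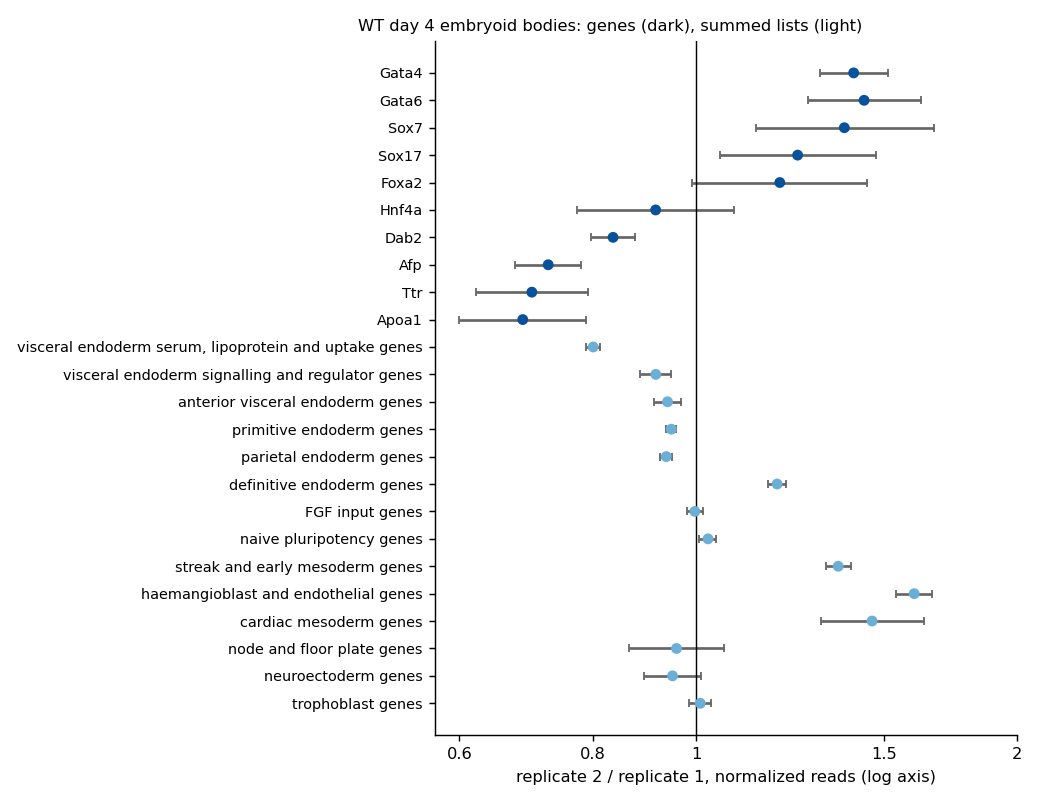
Ratio of replicate 2 to replicate 1 among the WT day 4 libraries, on a log axis, with exact 95% counting intervals. Dark points are the 10 genes and light points are summed counts of each list. The primitive (0.948) and parietal (0.938) endoderm lists lie left of 1. The GATA and SOX genes lie right of 1 with the streak, definitive endoderm (1.19), haemangioblast and cardiac lists. Afp, Ttr, Apoa1 and Dab2 lie left of it with the visceral endoderm serum list (0.801).

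Across the 8 EB libraries the 10 genes followed each other, with a median Pearson r of 0.876 over the 45 pairs on log2(normalized count + 1). The highest was 0.991 for Afp with Ttr and the lowest 0.197 for Sox7 with Hnf4a. These values describe libraries that share 1 high group, WT day 4, and carry no test. Among 12269 other genes with a mean of at least 50, the gene most like Afp was Cyp26a1, a retinoic acid hydroxylase gene (r = 0.993), and those most like Ttr were Mfsd12 (0.995) and Apoa4 (0.995). The closest to Gata4 were Zfp703 (0.998) and Nrp1 (0.997), and to Gata6 they were Hapln1 (0.997) and Mesp1, an early mesoderm factor gene (0.996). Sox7 was closest to Tnfaip2 (0.989), Sox17 to Tmem92 (0.993), Foxa2 to L3mbtl3 (0.993), Hnf4a to Tsg101 (0.999), Apoa1 to Tspan3 (0.996) and Dab2 to Ttyh3 (0.997).

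In the PDA cells, 8 of the 10 genes passed the filter on low values, and Ttr and Apoa1 did not. The exposures differed in length, 6 h for SB505124 and 1.5 h for TGFβ, so treatment and time cannot be told apart. Rreb1 itself had normalized counts of 1458 and 1501 under SB505124 and 4293 and 4212 under TGFβ in WT. The labelled KO had 2164 and 2195, then 2886 and 2560, so here too its transcript was present under the KO label. By the same limma fit it was higher in the labelled KO under SB505124 (log2 fold change 0.56 ± 0.08, SE, adjusted p = 5.64e-04). Under TGFβ it was lower there (-0.65 ± 0.08, adjusted p = 3.64e-04). Under TGFβ against SB505124, 5 of the 8 changed in WT, against 36.9% of the 13226 genes tested, and 6 of 8 in the labelled KO, against 38.7%. Sox7 met the filter through the WT TGFβ libraries only (29.5 and 18.5, against at most 1.84 in any other), so each of its calls here follows from the filter. Of the other 7 genes, 4 changed in WT and 6 in the labelled KO. Sox17 fell most in both, from 759 and 852 to 94.3 and 89.8 in WT and from 5952 and 6579 to 1286 and 1001 in the labelled KO. Foxa2 fell from 2117 and 2273 to 787 and 733 in WT and from 3007 and 3165 to 1507 and 1238 in the labelled KO. Hnf4a was slightly higher under TGFβ in WT, by a log2 fold change of 0.29 ± 0.06 (SE, adjusted p = 0.00599). That call was lost without either WT TGFβ library (adjusted p = 0.0592 and 0.0619).

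Between the genotype labels, most of the 8 genes were higher in the labelled KO in the PDA cells. The labelled KO differed from WT for 7 of 8 genes under SB505124, against 56.2% of all genes tested, with 6 higher, and for 8 of 8 under TGFβ, against 40.2%, with 7 higher. Without Sox7 the counts were 7 of 7 under both, with 6 higher under SB505124 and 7 under TGFβ. Among all genes that did not meet the filter through 1 group only, 29% were higher under SB505124 and 21.2% under TGFβ. Afp was the gene lower in the labelled KO under SB505124, by a log2 fold change of -0.275 ± 0.075 (SE). Dab2 stood at 318 and 280 under SB505124 and 313 and 397 under TGFβ in WT, and at 3683 and 3507 and at 6374 and 7535 in the labelled KO. It was thus higher in the labelled KO by log2 fold changes of 3.59 ± 0.14 and 4.29 ± 0.14 (SE). Sox17 was higher by 2.96 ± 0.13 and 3.61 ± 0.13. Gata4 had 1723 and 1907 in WT and 4162 and 4313 in the labelled KO under SB505124, and Gata6 had 954 and 982 against 1432 and 1500. Sox7 was the gene lower in the labelled KO under TGFβ, where it held 2 reads against 56 in WT.

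Afp was expressed in the PDA cells, with 2724 and 2535 under SB505124 and 1530 and 1608 under TGFβ in WT, a log2 fold change of -0.74 ± 0.08 (SE, adjusted p = 3.06e-04). In the labelled KO it was 2144 and 2200 under SB505124 and 2144 and 2321 under TGFβ, a change of 0.04 ± 0.08 (adjusted p = 0.722). The TGFβ change differed between genotype labels for 5 of 8 genes, against 21.8% of all genes tested, in a contrast added after the values were seen, and for 4 of the 7 other than Sox7. For Afp the difference was 0.78 ± 0.11 (adjusted p = 0.00372), and this call held under every alternative run. For Gata4, Sox7, Sox17 and Dab2 the call was lost under some alternatives.

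In the organoids, with 1 library per condition and no test, Sox7 and Dab2 were higher under TGFβ with and without doxycycline. Sox7 had normalized counts of 1766 under SB505124 and 4254 under TGFβ without doxycycline, and 724 and 1765 with it. Dab2 had 887 and 3842 without doxycycline and 58.0 and 330 with it, so that its level under SB505124 was 15.3-fold lower with doxycycline (counting interval 12.1 to 19.5). Hnf4a was higher with doxycycline, at 2337 and 3197 against 1003 and 1430. Sox17 was lower under TGFβ, at 143 against 260 without doxycycline and 67.9 against 153 with it. Ttr, near 0 in the PDA cells, had 1220 and 703 without doxycycline and 528 and 613 with it. Gata6 ran from 1009 to 1323 and Foxa2 from 1179 to 1734 over the 4 libraries. Gata4, Afp and Apoa1 were low, at no more than 60.3 in any organoid library. Under SB505124 all of them were higher with doxycycline than without. Apoa1 had 60.3 against 2.59 (81 and 3 reads, counting interval of the fold 7.68 to 115). Gata4 had 19.3 against 2.59 (26 and 3 reads, 2.29 to 38.5), and Afp had 32.7 against 16.4 (1.14 to 3.62).

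**Figure D5:**
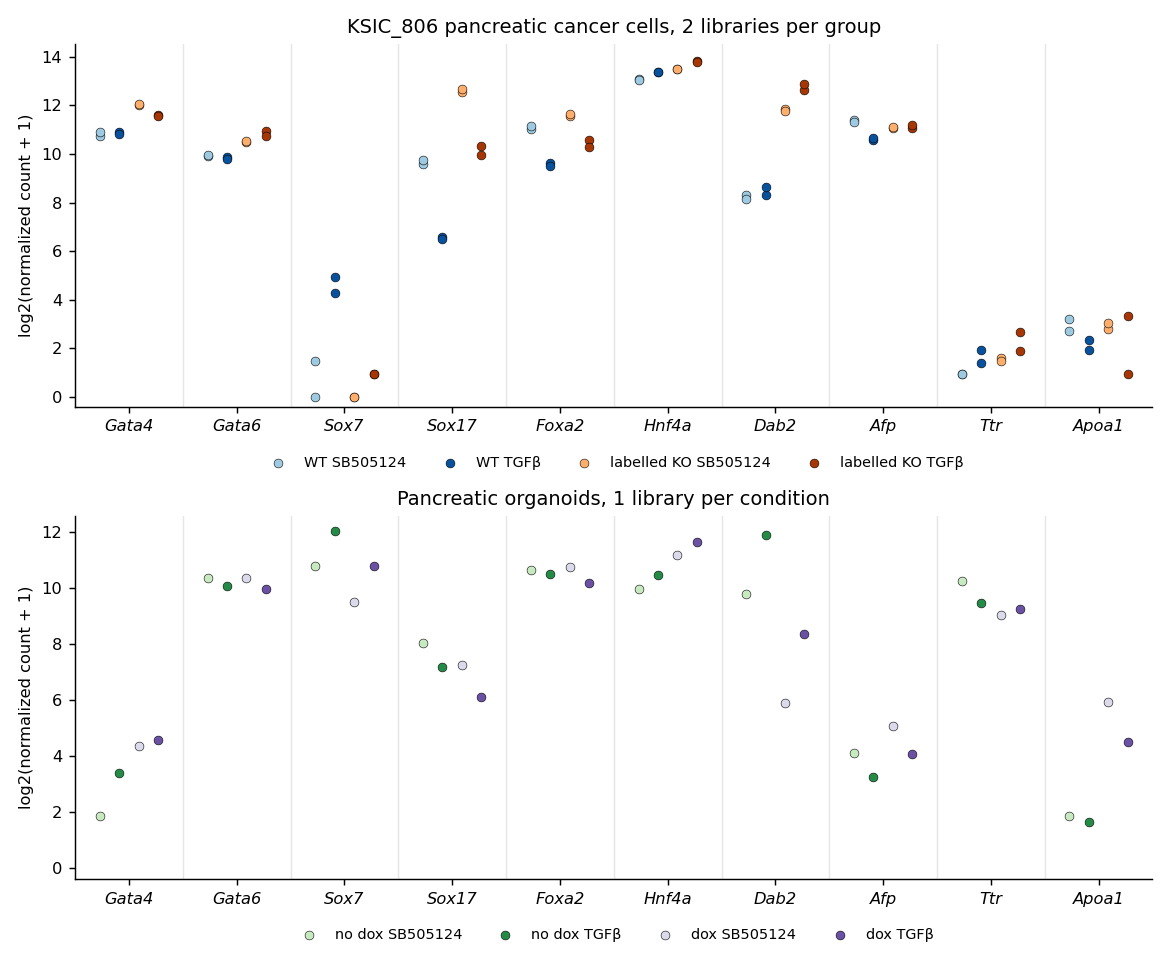
Levels of the 10 genes in the PDA cells (upper panel, 2 libraries per group) and the organoids (lower panel, 1 library per condition), as log2(normalized count + 1). Points are libraries and colours give the genotype label or doxycycline with the treatment. In the upper panel Dab2 and Sox17 stand higher in the labelled KO, and in the lower panel Dab2 stands lower with doxycycline. The tables were normalized separately, so heights should not be compared between panels.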

How the data were processed

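RNA-seq was analysed for 20 libraries in 3 tables. ChIP-seq and ATAC-seq samples were not analysed here. The deposited signal values are normalized read counts per gene. Per the submitters' processing notes the build was mm10 and the tools included HTSeq 0.6.1p1, DESeq2 3.4 and Bowtie2, with no role or order given. In every library 100% of the deposited values were whole multiples of 1 step (tolerance 0.001 of a step), so whole reads were recovered by division. Depth ran from 19885697 to 29082712 reads in the EB table, 20410770 to 44504338 in the PDA table and 23914870 to 35808735 in the organoid table.

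Values were taken as log2(value + 1), and genes with at least 10 in at least 2 libraries were fitted by limma 3.58.1 (R 4.3.3) with the trend option, 4 groups of 2 per table, two-sided, with Benjamini-Hochberg adjustment over all genes tested (threshold 0.05). Alternatives were a pseudocount of 8, no filter, rescaling to equal totals, quantile normalization, a replicate block, edgeR 4.0.16 and DESeq2 1.42.0 on the recovered reads, and leaving out each library. Counting intervals are exact at 95%, and the floor is 3 reads over a group; both cover counting error only. Counts without the genes that met the filter through 1 group only were added after the data were seen. Organoid conditions have 1 library each and no test.

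The members and the 14 gene lists (145 entries, 134 distinct genes) were chosen with earlier results of these data known. Named list genes are up to 4 per list with the smallest adjusted p in the EB contrasts; any other is marked in the text as chosen with its values in view. For each member, up to 2 genes most like it by Pearson r were named. Promoter sequences are from RefSeq (GRCm38.p6). Some list genes that this rule took, and a motif searched in the promoters, are not reported here.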

Additional observations from a re-analysis of the deposited data

Results flagged for a closer look

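The change from day 0 to day 4 differed between genotype labels, by the interaction term of the limma fit, for 9 of the 10 endoderm genes. The labelled KO minus WT difference on the log2 scale was -5.13 for Gata4, -4.67 for Sox17, -4.50 for Sox7, -3.94 for Foxa2, -3.81 for Apoa1, -3.72 for Gata6 and -3.13 for Dab2, with adjusted p-values from 5.96e-10 for Gata4 to 4.95e-04 for Apoa1. The fitted differences of Afp (-9.64) and Ttr (-8.97) rest on groups at or near 0 reads, depend on the pseudocount and are no bound. Afp, Ttr and Apoa1 met the filter on low values through WT day 4 only, so their calls follow from the filter. The call for Apoa1 was also lost with edgeR (adjusted p = 0.121). Of the other 7 genes 6 were called, all lower.

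In the PDA cells the TGFβ change differed between genotype labels for Afp (0.78, adjusted p = 0.00372), Gata4 (-0.52, adjusted p = 0.0139), Dab2 (0.71, adjusted p = 0.0373), Sox17 (0.65, adjusted p = 0.0435) and Sox7 (-2.93, adjusted p = 0.0477). The call for Afp held under every alternative run. That for Gata4 was lost under 4 alternatives (adjusted p from 0.0626 to 0.0832), that for Dab2 under 7 (0.058 to 0.133), that for Sox17 under 10 (0.0618 to 0.155) and that for Sox7 under 9 (0.0662 to 0.869, the last with edgeR at a log2 value of -1.48). Sox7 held 0 to 2 reads in every PDA group but WT under TGFβ and met the filter on low values through that group only, so its fitted difference depends on the pseudocount and is no bound, and its call follows from the filter.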

How the results depend on the processing

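All 10 endoderm genes kept their WT rise and their lower day 4 level in the labelled KO under every alternative run, leaving out each library included. Uncalled values near 0 changed sign. For Gata6, labelled KO day 4 against day 0, the log2 value was 0.0030 after rescaling to equal totals, 0.0010 with edgeR, and -0.19 to 0.16 with a library left out, above 0 without labelled KO replicate 2 of day 0 (0.13) or of day 4. Other reversals were Hnf4a in the EB interaction without labelled KO replicate 2 of day 0 (0.019, with a range of -0.34 to 0.019 over left-out libraries), Foxa2 at day 0 without WT replicate 1 (-0.043 to 0.58), Gata4 under TGFβ in WT PDA cells without SB505124 replicate 1 (-0.034 to 0.11) and Afp under TGFβ in labelled KO PDA cells with edgeR (-0.0049) or without TGFβ replicate 2 (-0.018 to 0.096). The cause of these changes was not tested.

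The PDA interaction called 5 of 8 endoderm genes, but 3 with no filter, 3 with edgeR and 2 with the replicate block, and 1 to 5 when a library was left out; over all genes it called 2886, 1596 with the block and 764 to 3881 with a library left out. With a library left out, genes called ranged from 2254 to 5183 (main 4887) for TGFβ in WT PDA cells, 2956 to 5931 (main 5113) in the labelled KO, and 3212 to 6148 (main 5316) for the labelled KO against WT under TGFβ; the low ends came without WT TGFβ replicate 1 (2254 and 3212) or labelled KO SB505124 replicate 1 (2956). Called PDA changes of Gata6 under TGFβ in the labelled KO and of Afp between labels under SB505124 were lost without single libraries (adjusted p from 0.0586 to 0.134).

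Replicate numbers are shared between groups. The deviations of same-numbered libraries had r from -0.033 to 0.091 between EB groups and -0.506 to 0.144 between PDA groups. The r of -0.506 was between WT under SB505124 and the labelled KO under TGFβ, whose deviations ran in opposite directions. These values cannot show whether same-numbered libraries shared a preparation. With the replicate block the WT day 4 contrast called 9683 genes (9602 without it) and the day 4 contrast between labels 8669 (8555 without it), and the number of endoderm genes called was the same in each EB contrast. Rescaling to equal totals moved the median of all genes in the EB day 4 contrast between labels to -0.11 and its split from 4236 higher and 4319 lower to 3428 and 5331. In the PDA table it moved the splits from 2731 and 2382 to 3830 and 1802 (TGFβ in the labelled KO), from 3828 and 3600 to 2975 and 4901 (labels under SB505124), from 2808 and 2508 to 2360 and 3305 (labels under TGFβ) and from 1284 and 1602 to 1869 and 1388 (interaction); the endoderm genes kept their directions in the contrasts between labels. Afp and Ttr outside WT day 4 are limited by depth, at 3 reads or fewer per group.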
